A study of Mus musculus with 5 samples.

Results

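The 9 genes described here carry MHC class I antigen presentation in the mouse: H2-K1, H2-D1, B2m, Tap1, Tap2, Tapbp, Psmb8, Psmb9 and Nlrc5. They are 9 of the 31053 gene features in the files, matched by symbol, and each was found once. They were chosen by their measured levels: their UMI counts across cell classes, and between the hM3 libraries and the others, were already known. Those 2 patterns are therefore given as descriptions with no test.

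The data are 5 single-nucleus RNA libraries (10x Genomics droplets, in which each RNA molecule is counted once through a unique molecular identifier, UMI) from the paraventricular hypothalamus of male mice on a C57BL6 background. Nuclei of 2 to 4 mice were pooled for each condition, per the labels, which do not give the number of mice in each library. The saline library and the VPA library came from OT-Cre; Ai9 mice, in which oxytocin neurons carry a red reporter, taken at 5 weeks of age. On embryonic day 12.5 the mother had received saline (10 mL/kg) for the first and 500 mg/kg of valproic acid (VPA) for the second. The hM3 control library and the 2 hM3 CNO libraries came from OT-Cre; stop-hM3 mice (genotype label OT-Cre; Rosa26dreaddm3), in which Cre in oxytocin neurons switches on the hM3 receptor. All 3 were exposed to the same dose of VPA before birth and taken at 5 to 7 weeks. On postnatal day 2 the control received saline and the others clozapine N-oxide (CNO), the drug that activates hM3. The labels also give an AAV injection into the paraventricular and supraoptic regions for the hM3 mice and do not say what it carried or when it was given. Genotype, AAV, the injection on postnatal day 2, age range and experiment therefore all differ between the 3 hM3 libraries and the other 2, and cannot be told apart. Valproate was shared by 4 of the 5 libraries and is absent only from the saline library.

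Class I molecules are made of a heavy chain, here H2-K1 or H2-D1, and the light chain beta-2-microglobulin, encoded by B2m. They show peptides of the cell's own proteins at its surface to CD8 T cells. The peptides are cut by the proteasome, whose interferon-induced subunits include Psmb8 and Psmb9, pumped into the endoplasmic reticulum by the transporter Tap1 and Tap2, and loaded with the help of tapasin, encoded by Tapbp. Nlrc5 is the transactivator of class I genes. In the healthy brain neurons carry little class I, and interferons raise the whole set in most cell types.

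Of the 9 genes, 7 lie on mouse chromosome 17 in the major histocompatibility complex. In GENCODE vM21 (GRCm38, the mm10 build that the submitters' notes name) H2-K1 spans chr17:33996017-34000347 on the minus strand and H2-D1 chr17:35262730-35267499 on the plus strand. Psmb9 (chr17:34181987-34187764, minus), Tap1 (chr17:34187553-34197225, plus), Psmb8 (chr17:34197721-34201454, plus) and Tap2 (chr17:34203527-34216321, plus) are neighbours, and Tapbp is at chr17:33915899-33929292 (plus). B2m (chr2:122147686-122153083, plus) and Nlrc5 (chr8:94434356-94527272, plus) stand alone. All 9 are annotated as protein coding.

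RefSeq promoters (GRCm38.p6) were found for 7 of the 9 genes. The stretches upstream of the class I chains are shown because the same short elements recur in front of these separate genes. Capitals mark matches on either strand to the core of interferon regulatory factor sites (IRF core, AANNGAAA), the NF-kappaB consensus, the CCAAT box (ATTGG) and TGACG. The first lines give the stretch from the NF-kappaB match to the IRF core, in H2-K1 (chr17:34000430-34000458, minus strand), H2-D1 (chr17:35262923-35262951, plus strand, upstream of the RefSeq start at 35263094 and inside the longer GENCODE span) and B2m (chr2:122147550-122147570, plus strand, where the order is inverted), and the last 2 the longer upstream regions of H2-K1 (chr17:34000348-34000497, minus strand) and B2m (chr2:122147521-122147685, plus strand).
H2-K1 element: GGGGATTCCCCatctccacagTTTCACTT
H2-D1 element: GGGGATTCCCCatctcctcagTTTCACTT
B2m element: AACTGAAAatgGGAAAGTCCC
H2-K1 upstream: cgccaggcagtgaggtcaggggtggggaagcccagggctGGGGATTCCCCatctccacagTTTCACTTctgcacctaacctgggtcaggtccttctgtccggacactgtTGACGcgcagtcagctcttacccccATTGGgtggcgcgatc
B2m upstream: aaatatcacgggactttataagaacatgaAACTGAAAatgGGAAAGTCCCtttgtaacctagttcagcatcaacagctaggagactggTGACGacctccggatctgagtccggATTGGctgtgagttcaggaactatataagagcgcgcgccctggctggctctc

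In the 250 bases before the start, H2-K1, H2-D1 and B2m each held all 4 motifs. Among 32851 promoters in the table, 21.3% held an IRF core, 7.25% an NF-kappaB match, 33.8% a CCAAT box and 17.8% TGACG. The best ungapped alignment of the H2-K1 and H2-D1 windows was 87.4% identical over 190 bases. Tap1 and Psmb9 start 226 bases apart and point away from each other, and in their windows a CCAAT box and TGACG were found, with no IRF core or NF-kappaB match. The Tapbp window held 2 CCAAT boxes and the Psmb8 window none of the 4 motifs. A match is a description of the letters and not a shown binding site.

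Depth and classes were as follows. The libraries held 52506944 to 76243279 UMIs, with medians of 3722.5 (CNO replicate 2) to 11913 UMIs per nucleus, and 29485 of 32292 nuclei were used. Nuclei fell into 34 clusters without use of the 9 genes or of other interferon-induced genes, and 6 classes were named from markers: neuron-like (18728 nuclei), astrocyte-like (4792), oligodendrocyte-like (2592), oligodendrocyte progenitor-like (OPC-like, 719), microglia-like (371) and vascular-like (461, in an endothelial cluster of 208, a mural cluster of 95 and fibroblast clusters of 91 and 67). Every marker checked for the 6 classes was highest in its own class. For the vascular-like class 9 were checked, which are not all the markers of its clusters. The clusters were named from the same lists, so this is no test of the names. Microglia-like nuclei were few in the CNO libraries, 23 and 32. Clusters with markers of more than 1 class were kept apart as mixed: they held 20 saline nuclei, 17 VPA nuclei, 229 nuclei of the hM3 control and 238 and 805 of CNO replicates 1 and 2. In the hM3 libraries they held 12.2% to 26.5% of all UMIs of the 9 genes. Below, series of 5 values always follow this order of libraries. Barcodes shared between libraries numbered 4 to 23 per pair, at most 0.374% of the smaller library.

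The class I chains were present at low levels in the saline and VPA libraries and at higher levels in each of the hM3 libraries, in all 6 classes. Levels are given as CPM, the UMIs of a gene scaled to a common total for all UMIs of the class in that library. In oligodendrocyte-like nuclei H2-K1 stood at 1.74 CPM in the saline and 3.40 in the VPA library, and at 107, 178 and 137 CPM in the hM3 control and CNO replicates 1 and 2. The lowest hM3 library was thus far above both others. Pooled over libraries this was 884 UMIs against 6, a ratio of 58.9 (95% counting interval 26.9 to 161). H2-D1 in the same nuclei gave 0.870, 1.70, 96.4, 149 and 122 CPM. B2m gave 0.870, 0, 56.9, 94.4 and 64.4 CPM, or 460 UMIs in the hM3 libraries against 1 (ratio 184, counting interval 32.8 to 7275).

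Astrocyte-like nuclei started from a higher level. They formed 2 clusters that the libraries filled unequally: the cluster led by Slc4a4 and Slc1a3 held 606 of 680 saline, 1085 of 1129 VPA, 698 of 1032 hM3 control, 171 of 376 CNO replicate 1 and 97 of 1575 CNO replicate 2 nuclei, and the cluster led by Apoe and Slc1a2 the rest. H2-K1 was 17.2 and 10.3 CPM in the saline and VPA libraries and 90.3, 137 and 113 CPM in the hM3 control and both CNO libraries. H2-D1 was 5.49, 4.46, 55.9, 65.1 and 65.0 CPM. B2m went from 11.8 and 8.47 CPM to 57.5, 79.3 and 72.4 CPM. No hM3 library overlapped a saline or VPA library for these 3 genes. The pooled ratios were 7.62 (5.95 to 9.90) for H2-K1, 12.1 (8.08 to 19.1) for H2-D1 and 6.52 (4.88 to 8.90) for B2m.

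Neuron-like nuclei had the lowest level of the chains in every hM3 library. H2-K1 was 0.284 and 0.329 CPM in the saline and VPA libraries, from 16 and 17 UMIs over 3804 and 7429 nuclei, and 4.59, 8.19 and 9.15 CPM in the hM3 libraries. The pooled ratio of 22.5 (15.9 to 32.8) therefore rests on a very low base. H2-D1 was already detectable in the saline and VPA neurons at 3.92 and 3.81 CPM and was 10.4, 12.96 and 12.96 CPM in the hM3 libraries, a ratio of 3.07 (2.75 to 3.42). B2m was 0.780, 0.910, 4.29, 5.12 and 4.03 CPM.

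Microglia-like and vascular-like nuclei carried the chains in all 5 libraries. In microglia-like nuclei H2-K1 was 18.2 and 10.7 CPM in the saline and VPA libraries against 268, 238 and 232 CPM in the hM3 libraries. B2m, the common light chain, was 79.0 and 80.5 against 185, 188 and 136 CPM. The pooled ratios were 2.24 for B2m and 17.9 for H2-K1. At a clustering resolution of 2, where a second cluster with neuron markers took the microglia name, the B2m difference turned to -0.65 and that of Tap1 to -0.27 on the log2(CPM + 10) scale, 2 of the 9 genes were above in every hM3 library, and the summed level of the 9 genes in the hM3 libraries was 273 CPM in place of 1162 CPM. In vascular-like nuclei B2m was 60.6, 49.7, 165, 208 and 283 CPM. The endothelial cluster made up 22 of 70 saline, 20 of 80 VPA, 37 of 79 hM3 control, 9 of 20 CNO replicate 1 and 120 of 212 CNO replicate 2 nuclei of that class, and the part of this make-up in the B2m levels was not tested. OPC-like nuclei had 2.97, 3.88, 33.4, 38.9 and 53.5 CPM of H2-K1.

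Marker levels moved with the groups in several classes. In microglia-like nuclei the summed oligodendrocyte markers were 103 to 236 CPM in the saline and VPA libraries and 364 to 1433 CPM in the hM3 libraries, the OPC markers 66.9 to 80.5 against 176 to 1512 CPM, and the microglia markers themselves 9411 to 10790 against 7052 to 9225 CPM. In vascular-like nuclei the oligodendrocyte markers were 139 to 149 against 198 to 1315 CPM. In OPC-like nuclei the oligodendrocyte markers were 151 to 175 against 200 to 654 CPM, and the OPC markers themselves 11427 to 12225 against 7288 to 7489 CPM. Of the 8 oligodendrocyte markers, 2 were above in every hM3 library in microglia-like, 3 in vascular-like and 4 in OPC-like nuclei, where 15.4%, 16.1% and 23.8% of all genes measured were, and none was at 0 in all 5 libraries. The astrocyte markers in vascular-like nuclei were lower in every hM3 library, at 520 to 593 CPM in the saline and VPA libraries and 111 to 428 CPM in the hM3 libraries. In astrocyte-like nuclei the oligodendrocyte markers were 307 to 318 against 323 to 894 CPM, the OPC markers 1914 to 1992 against 1341 to 1671 CPM and the macrophage markers 6.69 to 7.84 against 2.94 to 4.08 CPM. The microglia markers there summed to 52.5 to 73.1 against 44.9 to 109 CPM, with overlap, and 6 of the 11 were above in every hM3 library, or 5 of the 8 measured, where 23.6% of all genes measured were. In neuron-like nuclei the T and NK markers were 26.4 to 26.5 against 18.8 to 26.2 CPM. In oligodendrocyte-like nuclei their own markers were 18062 to 18576 against 14694 to 17424 CPM. Their part in the levels was not tested.

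**Figure D1:**
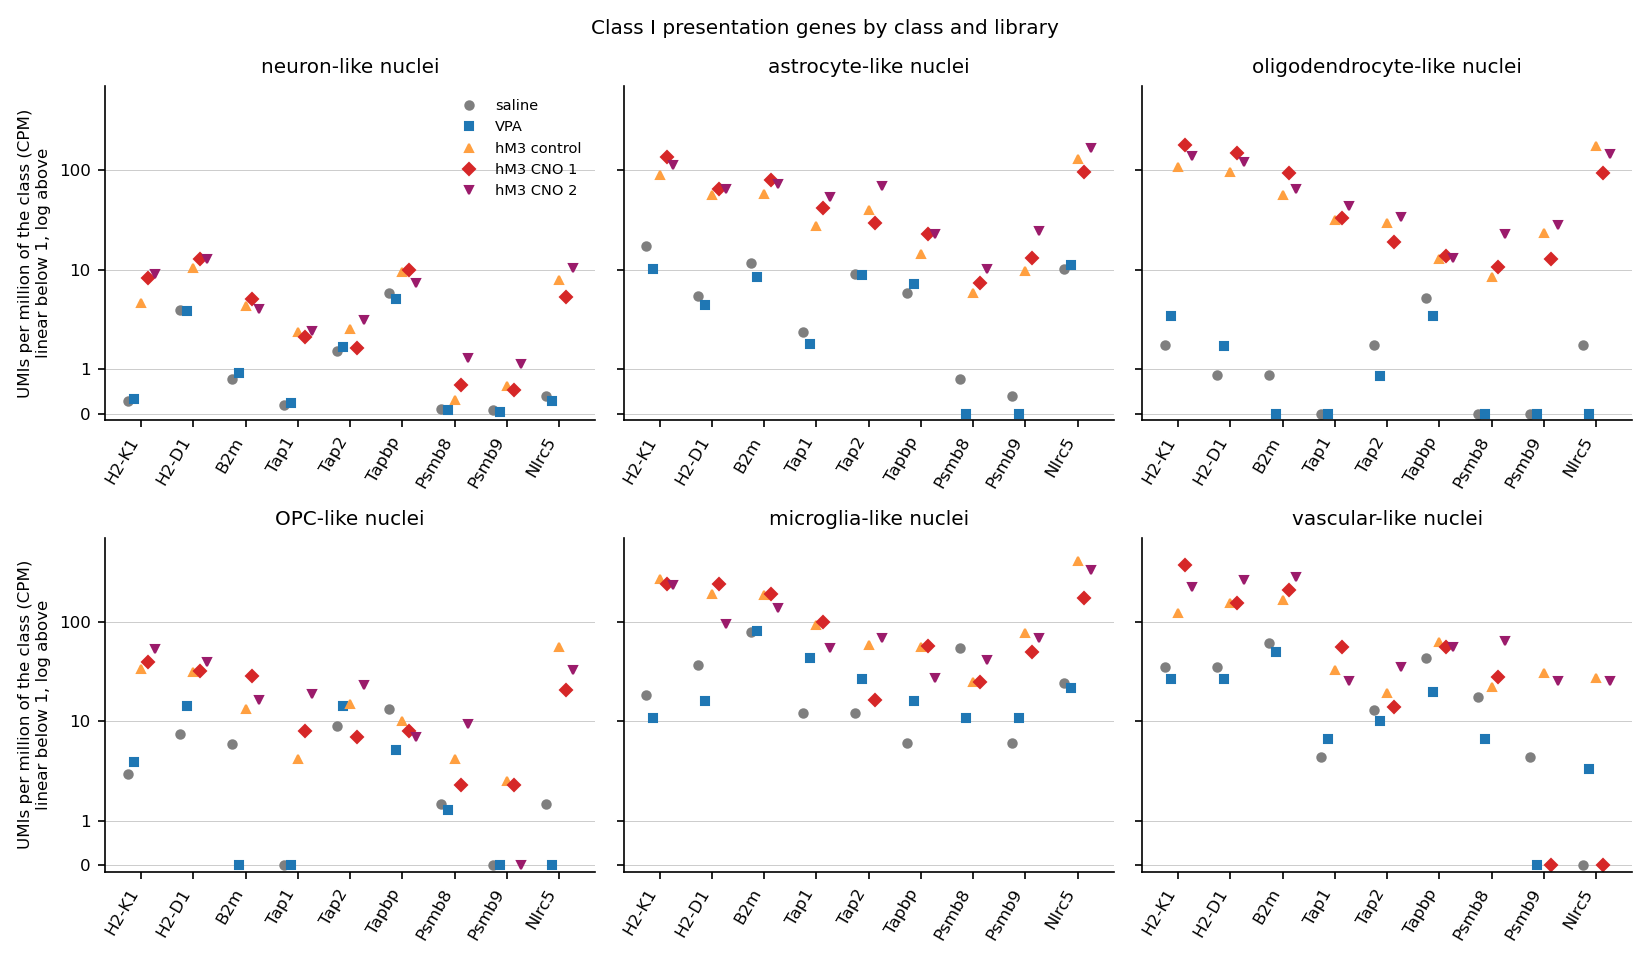
Level of each of the 9 genes (horizontal axis) in CPM of the class (vertical axis, linear below 1 and logarithmic above), one panel per class and one point per library. In oligodendrocyte-like nuclei every gene has its 3 hM3 libraries above both others, and in neuron-like nuclei Tap2 is the exception.

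Genes that supply the peptides showed the same separation in glia, with more exceptions. Tap1, a subunit of the peptide transporter, had no UMI in oligodendrocyte-like nuclei of the saline and VPA libraries, where 3 UMIs would be 2.61 and 2.55 CPM, and 31.7, 32.9 and 43.6 CPM in the hM3 libraries. Against a floor of 3 UMIs over the pooled saline and VPA nuclei it was at least 26.8-fold higher. Psmb8 and Psmb9, the interferon-induced proteasome subunits, also had no UMI there and were at least 9.46-fold and 14.2-fold higher. Psmb9 in the hM3 libraries was 23.3, 12.7 and 28.4 CPM. In astrocyte-like nuclei Tap1 was 2.35 and 1.78 CPM against 27.7, 41.4 and 54.2 CPM, and Psmb9 0.392 and 0 against 9.66, 13.03 and 24.5 CPM.

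Tap2, the partner subunit of Tap1, overlapped between the sides in neuron-like nuclei. Its levels there were 1.54 and 1.66 CPM in the saline and VPA libraries and 2.54, 1.63 and 3.14 CPM in the hM3 control and the CNO libraries, so that CNO replicate 1 lay below the VPA library. In OPC-like nuclei it also overlapped (8.90, 14.2, 15.0, 6.86 and 23.3 CPM), and so it did in microglia-like nuclei (12.2, 26.8, 58.6, 16.4 and 68.1 CPM). In astrocyte-like nuclei it did not: 9.02 and 8.92 CPM stood against 40.1, 29.5 and 68.8 CPM.

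Tapbp, the loading factor tapasin, had the smallest pooled ratio of the 9 genes in astrocyte-like (2.90, 1.97 to 4.38) and oligodendrocyte-like nuclei (3.12, 1.61 to 6.75). It was 5.90 and 5.11 CPM in saline and VPA neurons against 9.49, 9.87 and 7.36 CPM, and in OPC-like nuclei the hM3 libraries lay inside the range of the others (13.3, 5.17, 10.0, 8.01 and 6.98 CPM). Psmb8 in microglia-like nuclei was another exception, with 54.7 and 10.7 CPM in the saline and VPA libraries and 24.7, 24.6 and 40.9 CPM in the hM3 libraries.

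Nlrc5, the transactivator, was higher in every hM3 library in all classes but the vascular-like. It was 1.74 CPM (2 UMIs) and 0 in saline and VPA oligodendrocyte-like nuclei and 176, 92.8 and 146 CPM in the hM3 libraries. Astrocyte-like nuclei had 10.2, 11.2, 130, 95.2 and 165 CPM and microglia-like nuclei 24.3, 21.5, 407, 172 and 327 CPM. Neuron-like nuclei had 0.408, 0.290, 7.92, 5.32 and 10.4 CPM, with a pooled ratio of 21.1 (15.3 to 30.1). In vascular-like nuclei CNO replicate 1 had no Nlrc5 UMI in its 20 nuclei, and the other 2 hM3 libraries had 27.5 and 25.4 CPM. CNO replicate 1 was the lowest of the hM3 libraries for Nlrc5 in the other classes too, for example in OPC-like nuclei (20.6 CPM against 56.0 and 32.6).

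Over the 9 genes, the number whose 3 hM3 libraries all lay above both others was 8 in neuron-like, 9 in astrocyte-like, 9 in oligodendrocyte-like, 6 in OPC-like, 7 in microglia-like and 7 in vascular-like nuclei. Among genes with at least 30 UMIs over the 5 libraries, taken as measured, the counts were 8 of 9, 9 of 9, 9 of 9, 4 of 6, 7 of 8 and 7 of 9. The share of all genes measured that did so was 21.5%, 23.6%, 17.5%, 23.8%, 15.4% and 16.1% in the same order. None of the 9 lay below in every hM3 library. The genes below that number of UMIs were Psmb8 in microglia-like nuclei and Tap1, Psmb8 and Psmb9 in OPC-like nuclei. Since the genes were chosen with this contrast known, the counts describe the choice. The median difference of mean log2(CPM + 10) over the 9 genes was 0.28 in neuron-like, 1.98 in astrocyte-like, 2.19 in oligodendrocyte-like, 0.96 in OPC-like, 1.42 in microglia-like and 1.07 in vascular-like nuclei. Over all genes measured the medians lay between -0.04 and 0.11. The scale adds 10 CPM to each value and so understates the change of low genes. With 1 CPM added the median was 1.42 in neuron-like and 5.20 in oligodendrocyte-like nuclei. In neuron-like nuclei the median pooled ratio was 6.90-fold. With genes at 0 taken at their lower bound it was 12.1-fold in astrocyte-like, 26.8-fold in oligodendrocyte-like, 3.18-fold in OPC-like, 4.55-fold in microglia-like and 5.26-fold in vascular-like nuclei.

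**Figure D2:**
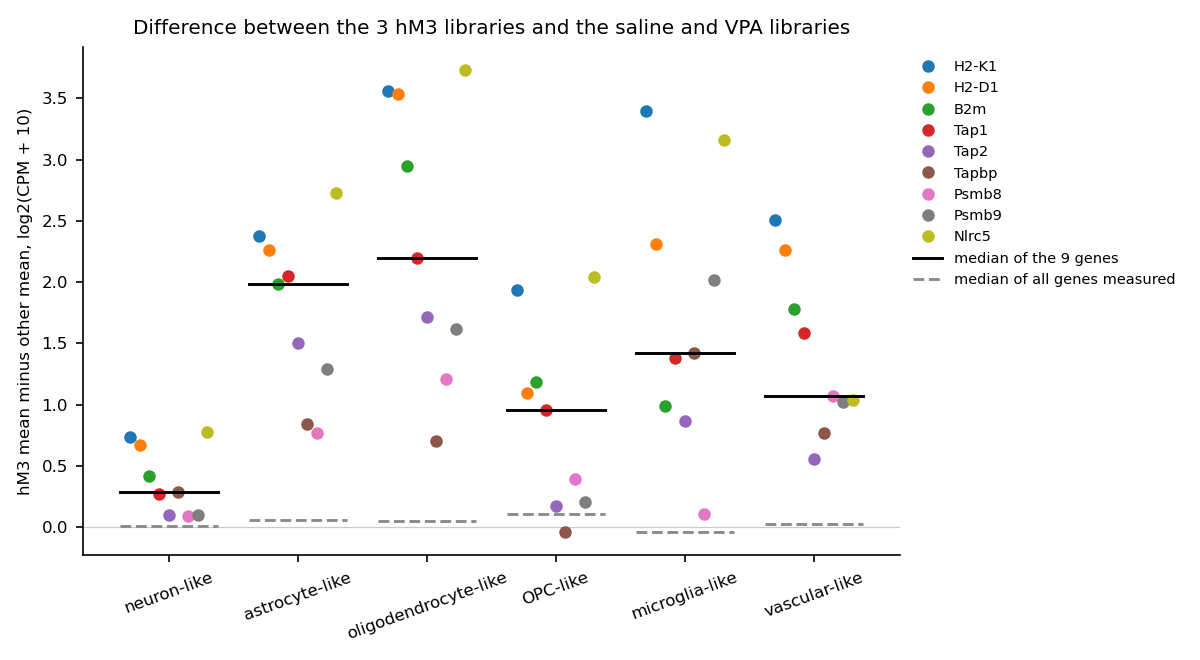
Difference between the mean of the 3 hM3 libraries and the mean of the saline and VPA libraries in log2(CPM + 10) (vertical axis) for each gene (coloured points) in 6 classes. Black lines give the median of the 9 genes, from 0.28 in neuron-like to 2.19 in oligodendrocyte-like nuclei, and dashed grey lines the median of all genes measured, near 0.

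The order of the classes differed between the sides. Summed over the 9 genes, the hM3 libraries held 1162 ± 169 CPM (SD, n = 3) in microglia-like, 842 ± 187 in vascular-like, 586 ± 37.6 in oligodendrocyte-like, 506 ± 83.3 in astrocyte-like, 172 ± 26.4 in OPC-like and 46.9 ± 4.74 in neuron-like nuclei. Among neighbours in this order, microglia-like nuclei stood above vascular-like nuclei in each hM3 library (1356, 1081 and 1049 against 637, 886 and 1003 CPM). So did oligodendrocyte-like over astrocyte-like nuclei (543, 603 and 612 against 431, 491 and 596 CPM), with ranges that overlapped between libraries. Both gaps were smallest in CNO replicate 2, and neither was tested. At a clustering resolution of 2 the microglia-like sum was 273 CPM, which ends its first place. In the saline and VPA libraries the sums were 249.2 and 236 CPM in microglia-like, 212 and 149 in vascular-like, 63.1 and 52.2 in astrocyte-like, 41.5 and 38.8 in OPC-like, 13.2 and 12.5 in neuron-like and 12.2 and 9.35 in oligodendrocyte-like nuclei. Oligodendrocyte-like nuclei thus stood level with neurons in the saline and VPA libraries (counting interval 6.66 to 20.4 in the saline library) and more than 10 times above them in each hM3 library. The glial classes of these 2 libraries held only 11 to 161 UMIs of the genes each, which limits the precision of their order.

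Where the RNA was found also differed. Neuron-like nuclei held 67.0% and 70.8% of all UMIs of the 9 genes in the saline and VPA libraries, and 33.4%, 35.4% and 19.5% in the hM3 control and the CNO libraries. Oligodendrocyte-like nuclei held 1.26% and 1.21% against 11.5%, 29.1% and 9.04%. These shares also follow the make-up of the sorted nuclei, since neuron-like nuclei were 73.2% and 75.6% of the nuclei in the saline and VPA libraries and 59.6%, 60.5% and 38.1% in the hM3 libraries, and the sort favoured larger nuclei.

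Among the 16 neuron-like clusters 15 had every hM3 library above both others, the exception being a cluster of 40 nuclei led by Pmch. The level was higher in the hM3 libraries in all 12 clusters with at least 20 nuclei in each library. Their means over the hM3 libraries ran from 32.6 to 179 CPM for the sum of the 9 genes, and over the saline and VPA libraries from 5.96 to 21.7 CPM. The cluster at the top of both was led by Gm28928 and Oxt, the oxytocin gene, and had 521 CPM of the paraventricular transcription factor gene Sim1. It held 22.5 and 20.8 CPM in the saline and VPA libraries and 90.9 (counting interval 78.0 to 105), 289 (257 to 325) and 157 (134 to 183) CPM in the hM3 control and CNO replicates 1 and 2. These came from 85, 42 and 71 nuclei, of which 46, 33 and 45 had at least 1 UMI of the genes. In the hM3 control 1 nucleus supplied 22.3% of the cluster's UMIs, and in the CNO libraries the highest nucleus supplied 10.8% and 11.2%.

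The next cluster, led by Agtr1a and Ghr and also rich in Sim1 (296 CPM), held 15.7, 17.8, 64.7, 198 and 49.3 CPM. In both clusters CNO replicate 1 was the highest library, on 42 and 62 nuclei. CNO replicate 2 stood above the hM3 control in the Oxt-led cluster and below it in the Agtr1a-led cluster. A cluster rich in Avp, the vasopressin gene (1028 CPM), held 25.7 and 30.8 CPM in the saline and VPA libraries and 69.1, 32.6 and 67.9 CPM in the hM3 libraries, with 11 nuclei in CNO replicate 1. The largest cluster (4649 nuclei, led by Nrxn3 and the GABA-synthesis gene Gad2) held 15.4, 11.7, 36.1, 29.2 and 43.2 CPM. A cluster led by Vav3 and Ntng1 had the lowest mean over the hM3 libraries, with 6.01, 5.90, 16.8, 34.9 and 46.1 CPM.

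In the Oxt-led cluster the heavy chains H2-K1 and H2-D1 pooled over the hM3 libraries stood at 40.1 and 36.1 CPM, B2m at 12.3 and Nlrc5 at 33.1 CPM, against 1.58, 4.73, 2.21 and 0 CPM in the pooled saline and VPA libraries. In these nuclei summed macrophage markers were 6.59 and 8.91 CPM in the saline and VPA libraries and 9.35, 20.2 and 48.4 CPM in the hM3 libraries, above in each. Summed T and NK markers were 64.2 and 71.3 against 35.3, 32.4 and 27.0 CPM, below in each. Summed microglia markers were 75.8 and 74.3 CPM in the saline and VPA libraries and 42.1, 45.5 and 92.1 CPM in the hM3 libraries. Summed oligodendrocyte markers were 58.7, 68.3, 65.5, 77.9 and 137 CPM, highest in CNO replicate 2. The part of other cells in the levels of this cluster was not tested.

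**Figure D3:**
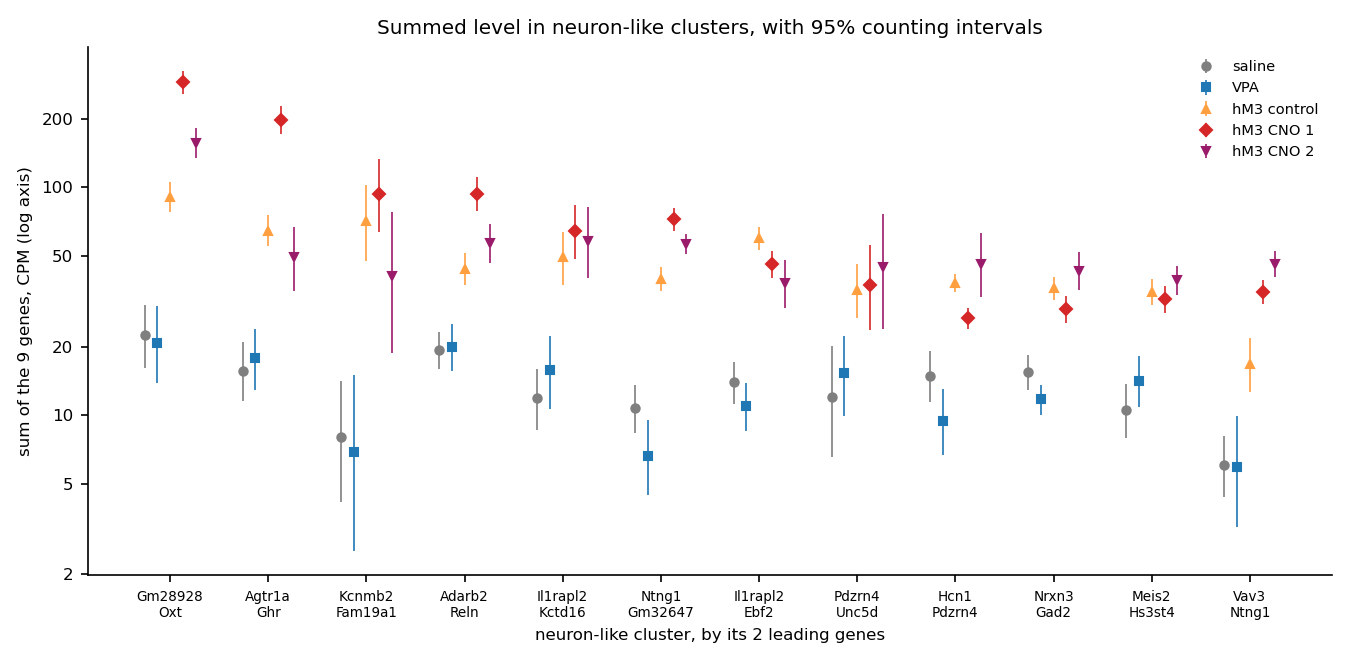
Sum of the 9 genes in CPM (vertical log axis) in the 12 neuron-like clusters with at least 20 nuclei in every library, named by their 2 leading genes, with 95% Poisson intervals that cover counting error only. Each cluster has its hM3 libraries above the saline and VPA libraries, and the Oxt-led cluster is the highest at 90.9, 289 and 157 CPM.

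Within a class the RNA was uneven from nucleus to nucleus. At least 1 UMI of the 9 genes was found in 50%, 57.0% and 41.0% of oligodendrocyte-like nuclei of the hM3 control and both CNO libraries, and in 4.29% and 1.89% in the saline and VPA libraries. Thinned to 2000 UMIs per nucleus, which left 283, 242, 360, 797 and 188 nuclei in the usual order, the shares were 3.53% and 0.826% against 38.1%, 47.8% and 47.9%. For neurons at that depth they were 2.31% and 2.66% against 8.41%, 8.93% and 8.13%, on 3802, 7404, 2938, 2474 and 2017 nuclei. At full depth, which was not matched between the libraries (median 13268 and 6189 UMIs per neuron in the saline and VPA libraries, and 16098, 17197 and 9649 in the hM3 libraries), UMIs of at least 3 of the 9 genes were found together in 5.05%, 5.99% and 4.66% of hM3 neuron-like nuclei and in 0.0789% and 0.0269% in the saline and VPA libraries. In vascular-like nuclei of CNO replicate 2 a single nucleus held 103 of the 749 UMIs.

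Class I RNA was more frequent in nuclei that also held other interferon-induced RNA, though not confined to them. A list of 48 interferon-induced genes that holds none of the 9 was counted in nuclei thinned to 2000 UMIs. Oligodendrocyte-like nuclei with at least 2 UMIs of the list made up 41.9%, 34.4% and 48.4% of the class in the hM3 libraries and 2.47% and 5.37% of the saline and VPA nuclei. Those of the hM3 libraries held 2285, 2679 and 2692 UMIs of the class I genes per 1000 nuclei, and the nuclei of the same libraries with none of the list 112, 407 and 161. The pooled ratio was 8.43 (counting interval 7.14 to 10.0). In neuron-like nuclei 14.4%, 10.3% and 15.3% had at least 2 UMIs of the list, with 322, 506 and 318 class I UMIs per 1000 nuclei against 65.2, 63.4 and 51.3 in nuclei with none, a ratio of 6.03 (5.16 to 7.05). Since most neurons had none of the list, 303 class I UMIs of the hM3 neurons lay in nuclei with none and 363 in nuclei with at least 2. In astrocyte-like nuclei the ratio was 3.30 (2.79 to 3.93) and in OPC-like nuclei 3.98 (2.47 to 6.72).

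Among neurons with none of the interferon list, the saline and VPA libraries had 24.7 (counting interval 19.7 to 30.7) and 25.8 (21.99 to 30.1) class I UMIs per 1000 nuclei, below the 65.2, 63.4 and 51.3 of the hM3 libraries. These intervals describe the counting error of 1 library each and are no test of the groups. In oligodendrocyte-like nuclei with none of the list the interval of the saline library (18.8 to 78.0 per 1000 nuclei) overlapped those of the hM3 control (62.7 to 185) and CNO replicate 2 (73.5 to 305). It did not overlap that of CNO replicate 1 (341 to 482). The VPA interval (0.138 to 30.3) overlapped no hM3 interval. In OPC-like nuclei intervals overlapped as well (saline 50.2 to 208 per 1000 nuclei, CNO replicate 1 52.4 to 376). In vascular-like nuclei CNO replicate 2 (333 per 1000, 122 to 726) lay below the saline library (467, 188 to 962). These values rest on 6 UMIs in 18 nuclei and 7 UMIs in 15 nuclei. In astrocyte-like nuclei with none of the list no hM3 interval overlapped that of the saline (100 to 177) or VPA library (52.6 to 127). The hM3 intervals there were 261 to 438, 325 to 649 and 325 to 573 per 1000 nuclei. At 2000 UMIs a nucleus with interferon-list RNA can show none, so these nuclei are not free of it. Nuclei with 1 or 2 UMIs of the list, just outside and just inside that boundary, numbered 1950 among the hM3 neurons. In the saline and VPA libraries the ratio was 1.95 (0.78 to 4.08) in neurons, 1.15 (0.63 to 1.97) in astrocytes, 4.03 (0.43 to 18.9) in oligodendrocyte-like, 0.91 (0.02 to 5.70) in OPC-like and 1.68 (0.76 to 4.00) in vascular-like nuclei, on 1 to 21 UMIs in the nuclei above the boundary. For microglia-like nuclei 1 VPA nucleus reached 2000 UMIs, so no such values are given for them.

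**Figure D4:**
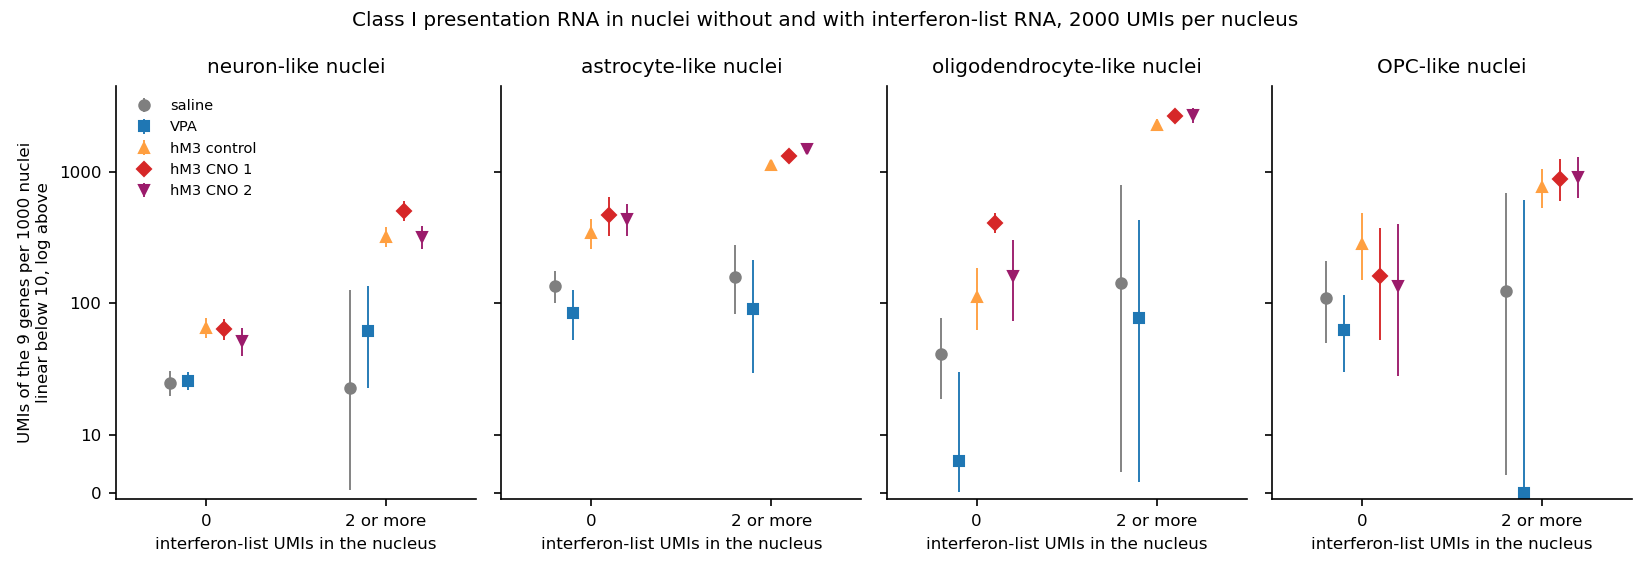
UMIs of the 9 genes per 1000 nuclei (vertical axis, linear below 10 and logarithmic above) in nuclei with 0 and with at least 2 interferon-list UMIs, per library, for 4 classes thinned to 2000 UMIs, with 95% Poisson intervals. The hM3 nuclei with at least 2 are above those with 0 in each of the 4 classes, for example 2285 against 112 in oligodendrocyte-like nuclei of the hM3 control.

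The level in neuron-like nuclei was also set against that in glia of the same library, beside the glial markers, since droplets can hold free RNA of other cells. The 8 oligodendrocyte markers had a median level in neuron-like nuclei of 0.190%, 0.316% and 0.508% of that in oligodendrocyte-like nuclei in the hM3 control and both CNO libraries, and no marker exceeded 1.17%. The summed class I genes stood at 7.83%, 7.69% and 8.49% of the oligodendrocyte level. H2-K1 alone was at 4.27%, 4.60% and 6.66%. Relative to astrocyte-like nuclei the markers had medians of 0.491%, 0.329% and 0.737% and the class I genes 9.85%, 9.45% and 8.71%. Relative to microglia-like nuclei the markers had medians of 0.0741%, 0.123% and 0.196% (highest single marker 8.35%) and the class I genes 3.13%, 4.29% and 4.95%. The summed markers, which weight the abundant ones, stood at 0.527%, 0.810% and 1.48% of the microglia level. The highest single microglia marker stood above the class I share in CNO replicates 1 and 2. The summed class I genes in saline and VPA neurons stood at 108% and 133% of the oligodendrocyte level, 20.9% and 23.9% of the astrocyte level and 5.30% and 5.28% of the microglia level. UMIs of the 9 genes per microglia-marker UMI were 0.874, 0.812 and 0.476 in neurons of the hM3 libraries and 0.147, 0.153 and 0.142 in the microglia-like nuclei. The part of free RNA in the neuronal levels was not tested.

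**Figure D5:**
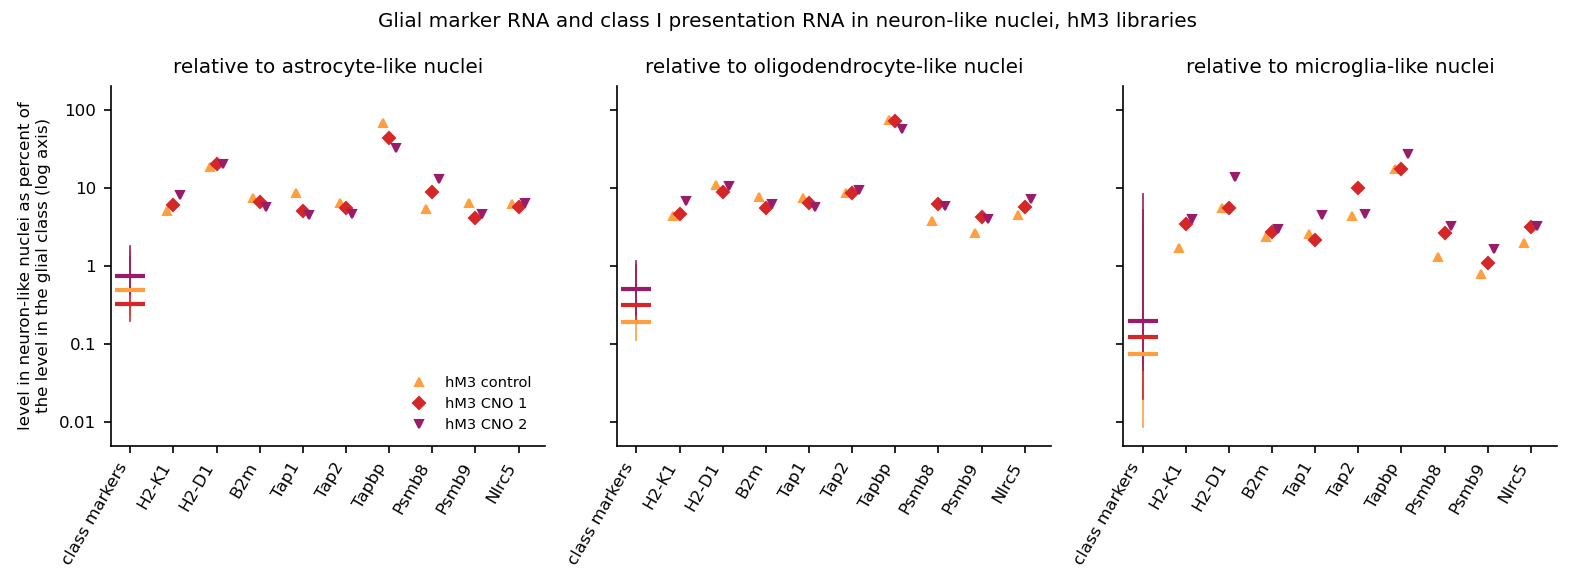
Level in neuron-like nuclei as a percentage of the level in the glial class of the same hM3 library (vertical log axis), for the class markers (bar at the median, line from lowest to highest marker) and for each of the 9 genes. The marker medians lie under 1%, and the summed genes stand at 7.69% to 8.49% of the oligodendrocyte level.

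Other genes of the pathway followed in part. Of 44 pathway genes fixed as lists with earlier results known, 38 were measured in neuron-like, 33 in astrocyte-like, 26 in oligodendrocyte-like, 17 in OPC-like, 22 in microglia-like and 25 in vascular-like nuclei. Those above in every hM3 library numbered 20, 20, 15, 8, 9 and 8, and those below 3, 2, 1, 0, 3 and 0. Over all genes measured, 21.5%, 23.6%, 17.5%, 23.8%, 15.4% and 16.1% were above and 12.7%, 11.6%, 11.8%, 11%, 15.4% and 11.8% below. The median differences of the pathway genes were 0.09, 0.28, 0.35, 0.17, 0.27 and 0.53. Of the other heavy chains, in oligodendrocyte-like nuclei 5 of 5 measured were above, with a median difference of 1.51. A gene near 0 in the saline and VPA libraries can count as measured through its hM3 UMIs alone, which favours such counts. H2-Q4, a non-classical heavy chain, was 10.4, 3.40, 64.7, 64.3 and 58.7 CPM there, and H2-T23, the ligand of NKG2A receptors, 3.48, 0, 21.99, 27.01 and 49.2 CPM. In microglia-like nuclei H2-Q7 had no UMI in the saline and VPA libraries and 157, 156 and 40.9 CPM in the hM3 libraries, and H2-Q6 was 0, 5.37, 98.6, 188 and 81.8 CPM. The heavy chain genes are close in sequence, and H2-D1 shares 4.25% and H2-K1 1.54% of their 90-base transcript windows with other genes, so UMIs may be split among them.

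Irf1, a transcription factor acting on class I genes, was 0.784, 1.78, 13.7, 9.06 and 29.1 CPM in astrocyte-like nuclei. Erap1, which trims peptides for class I, was 7.67, 7.01, 16.4, 9.29 and 17.3 CPM in neurons. Of the peptide loading genes, 1 of 5 was above and 1 below in neurons (median -0.05), 4 of 5 were above and 1 below in astrocytes (median 0.28), and 2 of 4 were above in oligodendrocyte-like nuclei (median 0.33). Tapbpl, a tapasin relative, was lower in hM3 astrocytes (14.5 and 16.9 CPM against 7.77, 8.50 and 7.89 CPM), and so was the class II transactivator Ciita in hM3 neurons (8.42 and 6.85 against 2.40, 3.36 and 5.04 CPM). Psmb7, a constitutive proteasome subunit, was slightly lower in oligodendrocyte-like nuclei (47.0 and 51.0 against 41.4, 35.4 and 39.8 CPM). The interferon list itself was above in every hM3 library for 38 of 42 measured genes in neuron-like, 44 of 44 in astrocyte-like, 41 of 42 in oligodendrocyte-like, 18 of 19 in OPC-like, 25 of 26 in microglia-like and 27 of 38 in vascular-like nuclei. Over all genes measured 21.5%, 23.6%, 17.5%, 23.8%, 15.4% and 16.1% were above, in the same order. The list was drawn up with earlier results known, and a gene can count as measured through its hM3 UMIs alone. These counts are therefore descriptions.

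Across the 30 class-by-library values, the genes whose log2(CPM + 10) was most like the mean of the 9 were Parp12 (Pearson r = 0.946), Parp14 (0.939), Ifih1 (0.934), Rnf213 (0.932), Irgm2 (0.929), Oasl2 (0.928), Usp18 (0.927) and H2-T23 (0.919), out of 16533 genes compared. Of these 8, 6 were on the interferon list and H2-T23 on the pathway list. Among the 9 themselves r with that mean ran from 0.803 (Nlrc5) to 0.948 (H2-D1), with the mean holding the gene itself. The closest pair was H2-K1 and H2-D1 (0.955) and the loosest Tapbp and Nlrc5 (0.382). These values share libraries and classes, so the correlations are descriptions.

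Nuclei of T or NK cell type were few among those used. A T-or-NK-like cluster held 7 and 1 nuclei in the saline and VPA libraries and 16, 20 and 15 in the hM3 libraries, at most 0.486% of nuclei (exact binomial interval 0.297 to 0.750). In the hM3 libraries it held 1, 4 and 1 UMIs of Cd8a and 3, 11 and 1 of Cd4. The median depth of its nuclei was 0.217 of that of their library, and the sort favoured larger nuclei. Their share in the tissue is therefore not known. Its nuclei supplied 131, 235 and 75 of the 7271, 6670 and 7146 UMIs of the 9 genes in the hM3 libraries. Ifng, the gene of interferon gamma, had 2 UMIs in all and Ifnb1, of interferon beta, 1. Summed T and NK markers within oligodendrocyte-like nuclei were 3.40 to 4.35 CPM in the saline and VPA libraries and 1.29 to 3.79 CPM in the hM3 libraries, with 5 of the 11 markers at 0 in all 5. In OPC-like nuclei the same markers were 0 to 4.45 CPM in the saline and VPA libraries and 10.3 to 13.4 CPM in the hM3 libraries, mostly Skap1, with 7 of the 11 at 0 in all 5. The part of these cells in the levels was not tested.

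Prenatal valproate was compared with saline in the 2 libraries of the first experiment, with 1 library each and no test. In neuron-like nuclei the differences of log2(CPM + 10) lay between -0.07 and 0.02, and in astrocyte-like nuclei between -0.43 and 0.11. On that scale, which genes under 10 CPM can hardly pass, none of the 9 reached a 2-fold difference in neuron-like, astrocyte-like, oligodendrocyte-like, OPC-like or vascular-like nuclei, where 0.0349%, 0.147%, 0.906%, 1.93% and 14% of all genes measured did. In microglia-like nuclei Tap1, 1 of the 8 genes measured, did, against 9.68% of all genes measured, and so did Psmb8, which had too few UMIs to count as measured. The only counting interval that left out no difference was that of Psmb8 in microglia-like nuclei, 9 UMIs in the saline against 2 in the VPA library (log2 ratio -2.35, -5.60 to -0.08), among 54 gene and class pairs. Without the added 10 CPM, ratios past 2-fold with intervals that include no difference were also seen, such as Tapbp in OPC-like nuclei (log2 ratio -1.37, -3.52 to 0.47) and in vascular-like nuclei (-1.12, -2.87 to 0.48). In neurons the interval for the log2 ratio of H2-D1 was -0.32 to 0.25, that of Tapbp -0.45 to 0.03 and that of H2-K1 -0.86 to 1.30. These intervals cover counting error only and compare 2 libraries, not the treatments. Astrocyte-like H2-K1 was 17.2 in the saline and 10.3 CPM in the VPA library (log2 ratio -0.75, -1.55 to 0.01).

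Neonatal CNO was compared with saline within the hM3 mice, the contrast that did not choose the genes. With edgeR's quasi-likelihood test on summed counts, none of the 9 genes was called at an adjusted p of 0.05 in any class, and with DESeq2 none either. All genes called by edgeR were 0%, 0.0368%, 0.181%, 0.109%, 1.64% and 0% of those tested in neuron-like, astrocyte-like, oligodendrocyte-like, OPC-like, microglia-like and vascular-like nuclei. Where edgeR called 0 of all genes, 486 in neuron-like and 222 in vascular-like nuclei were under 0.05 before adjustment, and DESeq2 called 6 and 0. Before adjustment, Nlrc5 alone of the 9 genes passed 0.05 in this edgeR fit, in 2 classes. Under other edgeR settings Tap1 in astrocyte-like, Nlrc5 and Tap2 in microglia-like and H2-K1 in vascular-like nuclei each passed it in at least 1 setting, none of them after adjustment. The log2 difference of Nlrc5 in the CNO libraries from the control was -0.69 ± 0.33 (SE) in oligodendrocyte-like nuclei (edgeR adjusted p = 1.00) and -1.22 ± 0.49 in OPC-like nuclei (edgeR adjusted p = 0.876). With predicted doublets kept, the OPC-like difference was -0.53 ± 0.41 (edgeR adjusted p = 0.998), no longer under 0.05 before adjustment. The oligodendrocyte-like difference was -0.74 ± 0.35 with doublets kept and -0.52 ± 0.32 with a minimum of 2000 UMIs. It too was no longer under 0.05 before adjustment in those settings. Both CNO libraries were below the control in these classes, at 92.8 and 146 against 176 CPM and at 20.6 and 32.6 against 56.0 CPM.

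The direction over the 9 genes differed by class. In astrocyte-like nuclei 8 of 9 were higher in the CNO libraries, with a median log2 difference of 0.38, and those nearest to the unadjusted threshold were Psmb9 (0.91 ± 0.47) and Tap1 (0.71 ± 0.37), both with an edgeR adjusted p = 0.998. The median over all genes tested there was 0.03. The astrocyte clusters were also filled unequally between these libraries, and the part of this make-up was not tested. In neuron-like nuclei H2-K1 was 0.86 ± 0.41 higher (edgeR adjusted p = 1.00), 8.19 and 9.15 against 4.59 CPM, while Nlrc5 differed by -0.06 ± 0.48. Psmb8 differed by 1.55 ± 0.81 (edgeR adjusted p = 1.00) on low counts. In vascular-like nuclei H2-K1 was 1.15 ± 0.50 higher (edgeR adjusted p = 1.00). In microglia-like nuclei 0 of the 8 tested were higher, with a median log2 difference of -0.18 against 0.01 over all genes tested. The fit has 1 residual degree of freedom, the gap between the CNO libraries, and the lone control is assumed to vary like them. The missing calls do not show that the levels were alike. The labels do not say whether the CNO libraries came from separate animals, so p-values measure the spread between libraries, which may be technical.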

How the data were processed

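Nuclei of the paraventricular hypothalamus were sorted on DAPI with a gate favouring larger nuclei, per the labels, and sequenced in 5 libraries. The deposited values are raw UMI counts per gene and nucleus that the authors made with Cell Ranger 7.0.1 on mm10, per the file headers and the submitters' processing notes. Intron and strand settings are not given in the sources used here. Without a stated strand, reads of B2m and Patl2, of Tap1 and Psmb9, and of Tap2, Psmb8, Tapbp and Nlrc5 and the genes that overlap them cannot be told apart. Among overlapping genes in the counts, only Zbtb22 lies on the same strand as its partner, Tapbp, with 3422 shared bases. A strand setting would not separate these. The members and lists were chosen with earlier results of these data known.

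From those counts, nuclei were dropped below 1000 UMIs or above 5% mitochondrial UMIs. Predicted doublets were removed at 0.8% per 1000 nuclei. Clusters (scanpy 1.11.5, leidenalg 0.10.2, 2000 genes, 30 principal components, 20 neighbours, resolution 1, seed 1) left out 99 genes, among them the 9 members and the interferon and pathway lists. Classes were named from marker lists. The 50 CPM added before ranking leading genes, and the limits that set mixed clusters apart, were chosen after the clusters were seen. UMIs were summed per class and library. Levels were compared as log2(CPM + 10), for genes with at least 30 UMIs. Only CNO against the hM3 control was tested, with edgeR 4.0.16 (quasi-likelihood, Benjamini-Hochberg adjustment, all 5 libraries in the fit) and, as an alternative, DESeq2 1.42.0. On simulated counts edgeR recovered 92.5% of 200 genes changed by a log2 fold of 2 in the neuron-like class, 85.5% in the astrocyte-like, 81% in the oligodendrocyte-like, 80.5% in the OPC-like, 70.5% in the microglia-like and 73.5% in the vascular-like. False calls numbered 3 to 13 per class. The simulated spread was a fixed value, not that of these libraries, and the changed genes all had UMIs in the control. These shares are therefore no measure of the power to call the 9 genes. Named genes of the other lists are among those with the largest and the smallest difference in each class; 1 of them is not reported here. The promoter motifs were picked after the sequences were seen. Intervals are 95% Poisson or exact binomial intervals, and with the floor of 3 counts they cover counting error only.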

Additional observations from a re-analysis of the deposited data

How the results depend on the processing

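With 1 CPM added in place of 10 CPM the median difference over the 9 genes was 1.42 in neuron-like, 2.98 in astrocyte-like, 5.20 in oligodendrocyte-like, 1.63 in OPC-like, 2.04 in microglia-like and 2.02 in vascular-like nuclei, as that scale compresses low genes less. At Leiden resolution 2 a cluster of 394 nuclei with 7 neuron and 4 microglia markers took the microglia name, beside that of 371 nuclei: 2 genes were then above in every hM3 library, the median difference was 0.14, the summed level 273 CPM, and B2m and Tap1 reversed to -0.65 and -0.27. Leaving out 1 library, the median ranged from 0.68 to 1.15 in OPC-like and from 0.79 to 1.66 in vascular-like nuclei, the highest of the latter without CNO replicate 1. The log2 ratio of class I UMIs by interferon-list UMIs in neurons was 2.59, and 1.69 or 3.22 with at least 1 or 3 UMIs. It was 2.57 in oligodendrocyte-like nuclei with at least 1, and, thinned to 4000 UMIs, 2.71 in astrocyte-like and 3.18 in OPC-like nuclei. The cause of these moves was not tested. No member was called for CNO under any alternative run, while calls over all genes ranged from 0 to 31 in neuron-like, 0 to 5 in astrocyte-like, 0 to 20 in oligodendrocyte-like, 0 to 12 in OPC-like, 0 to 91 in microglia-like and 0 to 23 in vascular-like nuclei. A minimum of 2000 UMIs gave no levels for microglia-like and vascular-like nuclei, too few of which remained. No paired analysis was possible because the groups share fewer than 2 replicate numbers.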
